A study of Mus musculus with 24 samples.

Results

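The comparison set the cerebellum (CB) of wild-type (WT) mice against the hippocampus (HC) at postnatal day 14 (P14), gene by gene, in bulk RNA-seq. Its members were chosen by region, age and genotype alone and are 6 of the 24 libraries of the series, 3 of CB (replicates 1, 2 and 3) and 3 of HC (replicates N4, N5 and N6). All mice of this comparison were males with no mutation. Their sample labels give a C57BL/6 strain background, whereas the methods of the study describe a colony on C57BL/6 x C3H/He F1 (B6C3), the name that the HC libraries also carry. In the rest of the series stand WT libraries of both regions at P35, and libraries of 16GsoT/T mice, homozygotes for a reciprocal translocation with a breakpoint between *Auts2* and *Galnt17*, at both ages. CB and HC RNA came in separate sets of libraries, so that region and library batch cannot be told apart in any comparison below. Nothing in the labels pairs a CB library with an HC library of the same mouse.

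The cerebellum is built around Purkinje cells, the GABAergic output neurons of its cortex, and a very large population of glutamatergic granule neurons, which in mice are still being born from progenitors in the external granular layer during the postnatal weeks. Sonic hedgehog from Purkinje cells drives those progenitors to divide. The hippocampus belongs to the telencephalon, and its glutamatergic neurons are the pyramidal cells of CA1 to CA3 and the granule cells of the dentate gyrus, accompanied by GABAergic interneurons that migrate in from the ventral forebrain.

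The CB libraries held between 22893603 and 35061288 reads on genes and the HC libraries between 10572358 and 10982100. Of all reads, 65.8% to 66.0% lay on genes in CB and 41.0% to 41.4% in HC, with 22% to 22.5% and 50.3% to 51.1% on no annotated feature. At P35 the WT libraries of both regions resembled the P14 HC libraries, with 37.6% to 40.9% of reads on genes, and the 16GsoT/T CB libraries at P14 resembled the WT ones, with 64.8% to 68.1%. The P14 CB libraries of both genotypes therefore stood apart from all other libraries listed here in this property, and any comparison of CB with HC at P14 carries it. Replicates of one region differed by more than sampling noise, and no library was a copy of another.

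Of 15791 genes tested with edgeR, 12187 were called at an adjusted p of at most 0.05, which is 77.2% of those tested. In CB, 6120 genes (38.8%) were higher and 6067 (38.4%) were lower than in HC. With a difference of at least 4-fold required as well, 704 genes (4.46%) were higher and 1470 (9.31%) were lower. The 3 CB values and the 3 HC values did not overlap for 12601 genes (79.8%). A call by itself was thus the usual outcome for a gene, and gene lists are read below against these shares and against the median of all tested genes, a log2 fold change of 0.01. Fold changes are CB over HC, levels are in CPM, the count of a gene as a share of all reads on genes in its library after TMM scaling, and fewer cells of a type cannot be told apart from less RNA per cell in such tissue. With 3 libraries against 3, an exact permutation test of a single gene cannot go below a two-sided p of 0.1, so p-values come from the fit across all genes and measure the spread between these libraries.

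Genes of cerebellar granule neurons were higher in CB without exception. The list held 15 genes, all of them tested and called higher at a median of 4.82 (log2 fold change), and 13 passed 4-fold. *Gabra6*, which encodes the GABA-A receptor subunit that marks granule neurons, had 795, 921 and 784 CPM in the CB libraries and 0.192, 0.541 and 0.455 CPM in the HC libraries. Its log2 fold change of 11.003 ± 0.18 (SE, adjusted p = 2.61e-11) was the highest among well-expressed genes. *Cbln3*, a secreted partner of cerebellin 1, was at 917, 1051 and 935 CPM in CB against 1.53, 1.44 and 1.73 CPM in HC, a log2 fold change of 9.26 ± 0.13 (adjusted p = 1.81e-11). *Fat2*, an atypical cadherin of granule neurons, stood at 754 ± 57.9 CPM (SD, n = 3) in CB and 1.32 ± 0.36 CPM in HC. For these 3 genes every CB library lay far above every HC library. The transcription factors of the lineage followed at less extreme ratios. *Zic1* was at 832 ± 81.9 CPM in CB and 10.9 ± 1.08 CPM in HC (log2 fold change 6.26), *Pax6* rose by 4.42 and *Neurod1*, a basic helix-loop-helix factor that dentate granule cells also use, by 4.29. *Cbln1*, the organizer of synapses between parallel fibers and Purkinje cells, had 612, 807 and 681 CPM in CB, and 7.48, 8.84 and 19.6 CPM in HC. The smallest differences of the list were those of *Gabrd* (1.76) and *Grin2c* (1.49), receptor subunits that mature granule neurons acquire.

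Start regions are shown for 2 of these granule neuron genes and for 2 genes of telencephalic neurons described below, because they carry the 2 opposite sides of the comparison. They are RefSeq sequences of build GRCm38.p6, 250 bases before to 50 bases after the annotated start, on the minus strand in all 4 cases, at chr11:42321023-42321322 (*Gabra6*), chr14:55884207-55884506 (*Cbln3*), chr6:55681214-55681513 (*Neurod6*) and chr9:37552696-37552995 (*Nrgn*). Capitals mark the E-box CANNTG, which reads the same on both strands and is the core that factors of the NeuroD kind recognise.
Gabra6: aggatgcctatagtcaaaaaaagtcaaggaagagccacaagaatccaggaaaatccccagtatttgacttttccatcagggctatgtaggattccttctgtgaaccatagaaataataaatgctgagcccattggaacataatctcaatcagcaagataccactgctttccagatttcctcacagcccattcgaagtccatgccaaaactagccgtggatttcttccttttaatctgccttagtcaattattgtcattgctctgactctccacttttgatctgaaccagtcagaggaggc
Cbln3: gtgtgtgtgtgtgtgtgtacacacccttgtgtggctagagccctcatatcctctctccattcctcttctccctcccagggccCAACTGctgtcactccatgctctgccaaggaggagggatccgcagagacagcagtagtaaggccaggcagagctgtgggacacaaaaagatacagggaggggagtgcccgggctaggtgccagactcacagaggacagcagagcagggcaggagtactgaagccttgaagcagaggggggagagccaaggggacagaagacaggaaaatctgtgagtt
Neurod6: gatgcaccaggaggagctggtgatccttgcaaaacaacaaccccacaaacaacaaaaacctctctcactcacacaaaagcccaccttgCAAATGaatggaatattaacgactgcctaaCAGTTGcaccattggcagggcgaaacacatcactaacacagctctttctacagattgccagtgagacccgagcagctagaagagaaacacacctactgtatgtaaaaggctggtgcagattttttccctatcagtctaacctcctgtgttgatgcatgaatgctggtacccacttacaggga
Nrgn: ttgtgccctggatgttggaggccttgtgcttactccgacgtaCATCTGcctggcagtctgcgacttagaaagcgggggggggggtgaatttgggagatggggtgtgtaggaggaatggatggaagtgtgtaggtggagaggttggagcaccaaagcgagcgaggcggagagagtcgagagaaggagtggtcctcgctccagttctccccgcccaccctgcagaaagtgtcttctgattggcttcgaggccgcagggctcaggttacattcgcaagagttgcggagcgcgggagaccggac
No CANNTG lay in the *Gabra6* window, 1 each in those of *Cbln3* and *Nrgn*, and 2 in that of *Neurod6*. Of all 32851 RefSeq windows of this length, 72.3% held the motif. It was in 13 of 17 windows of the granule neuron list, which cover 11 of its 15 genes, and in 8 of 13 windows of the telencephalic excitatory list, which cover 9 of its 14. The 4 windows differ more in base composition, from 42.0% G and C in *Gabra6* to 59.3% in *Nrgn*, whose window has 17 CG dinucleotides against 2 for *Gabra6*.

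Purkinje cell genes formed the other large group on the CB side. Of its 22 members, 20 were tested and all 20 were called higher, at a median of 4.04 (log2 fold change). *Gsbs*, an older symbol of the phosphatase inhibitor gene *Ppp1r17*, was nearly constant across CB libraries at 216, 212 and 213 CPM, while HC libraries held 0.767, 0.902 and 0.91 CPM. *Car8*, a carbonic anhydrase-related protein that binds the IP3 receptor, had 1729, 1566 and 1633 CPM in CB against 10.9, 12.3 and 13.9 CPM in HC (log2 fold change 7.05 ± 0.11, adjusted p = 2.61e-11). Its partner, the IP3 receptor gene *Itpr1*, reached 2113 ± 251 CPM in CB and was also present in HC at 172 ± 17.0 CPM. *Pcp2*, a modulator of G-protein signalling, was higher by 6.74. Several of the genes used to recognise Purkinje cells are shared with hippocampal neurons, which shows in their HC levels. *Calb1*, for the calcium buffer calbindin, was at 1558, 1471 and 1476 CPM in CB and at 121, 137 and 106 CPM in HC. *Aldoc*, whose protein zebrin II marks only some Purkinje cells and which astrocytes also make, differed by just 0.22 (adjusted p = 0.0144).

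Smaller cerebellar populations showed the same direction. In the Bergmann glia list 8 of 9 genes were called higher and none lower, led by *Gdf10*, a secreted TGF-beta family member, with 296, 347 and 367 CPM in CB against 27.3, 24.0 and 22.3 CPM in HC. *Gria4*, an AMPA receptor subunit, followed at 556 ± 3.94 and 49.9 ± 9.16 CPM. Among markers of interneurons, unipolar brush cells and other cerebellar neurons, 8 of 11 were higher and 2 lower. *Pax2*, a factor of immature cerebellar interneurons, was at 3.42, 3.57 and 3.56 CPM in CB and had no read in any HC library, so that it was at least 38.0-fold higher against a floor of 3 counts over the group. *Slc6a5*, the neuronal glycine transporter, was higher by 5.39, and *Eomes*, a factor of unipolar brush cells, by 2.10. The 2 genes of that list below HC were *Grm2* at -3.08 and *Sorcs3* at -0.88, both of which hippocampal neurons also express.

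**Figure D1:**
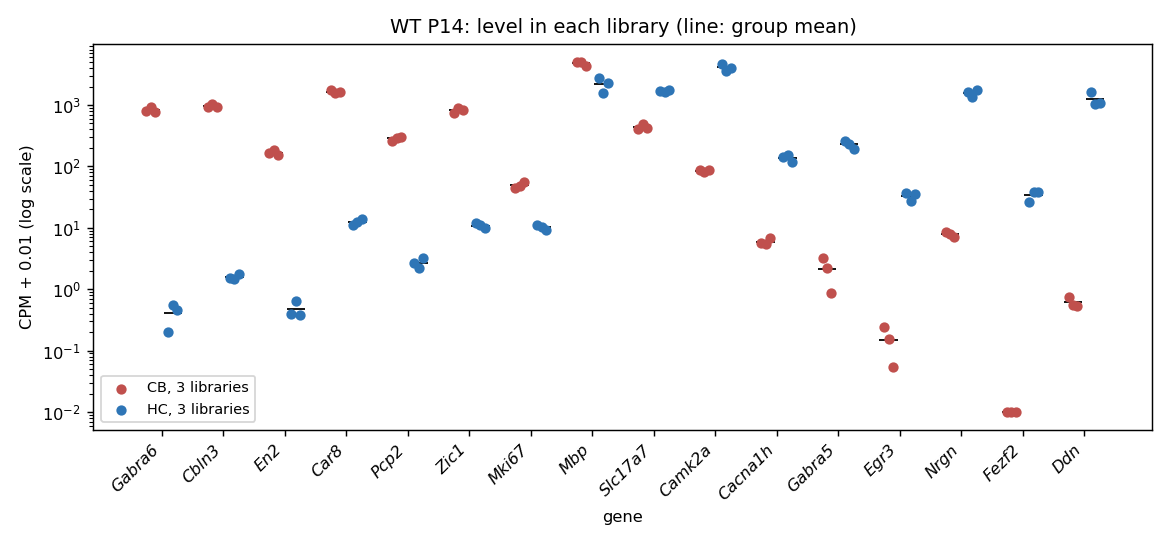
Level of 16 genes in each of the 6 WT P14 libraries, as CPM plus 0.01 on a log axis (red, 3 CB libraries. Blue, 3 HC libraries. Black lines, group means). The CB and HC points of each gene are apart, by about 2-fold for *Mbp* and by more than 2000-fold for *Gabra6*.

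On the HC side, the genes of telencephalic excitatory neurons stood out. Of 14 tested genes of that list 11 were called lower in CB and 1 higher, and the median was -3.63. *Ddn*, which encodes the postsynaptic protein dendrin, had 0.746, 0.551 and 0.521 CPM in CB and 1611, 1051 and 1061 CPM in HC. Its log2 fold change of -10.96 ± 0.26 (adjusted p = 2.11e-10) was the lowest among well-expressed genes. *Nrgn*, for the calmodulin-binding protein neurogranin, followed with 8.67, 7.95 and 6.95 CPM against 1609, 1351 and 1740.5 CPM. *Camk2a*, the alpha subunit of calcium/calmodulin-dependent kinase II, was at 85.4 ± 3.15 CPM in CB and 4101 ± 558 CPM in HC. No CB value of these 3 genes came near an HC value. *Neurod6* was lower by 4.07 on the log2 scale. By contrast, its relatives *Neurod2* (0.36, adjusted p = 0.0146) and *Bhlhe22* (-0.02, adjusted p = 0.910) and the pentraxin gene *Nptx1* (0.09, adjusted p = 0.239) differed little or were not called. With the GC correction described below, *Neurod2* (0.88, adjusted p = 5.96e-05) and *Nptx1* (0.39, adjusted p = 0.000341) were both called higher. *Bhlhe22* was not called in that fit either (0.09, adjusted p = 0.553).

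Subfields of the hippocampus could be followed by their own markers. Of the CA1 list 8 of 9 genes were lower in CB (median -3.98), of the CA2 and CA3 list 10 of 11 (median -2.67) and of the dentate granule cell list 11 of 14 (median -1.67). The list of Cajal-Retzius and mossy cells was divided, with 4 of 7 genes lower in CB and 3 higher. Against a 1.5-fold change 2 were lower and 2 higher. Its summed level was higher in CB, at 466 to 519 CPM against 123 to 191 CPM in HC. *Fibcd1*, a CA1 marker, had 133, 168 and 79.1 CPM in HC and 2.56, 1.04 and 1.09 CPM in CB. *Rgs14*, which restrains plasticity in CA2, was at 68.9, 50.1 and 61.7 CPM in HC and at 0.217 CPM or less in CB. *C1ql2* and *Dsp*, markers of dentate granule cells, were lower by 6.13 and 6.33. Some genes of the dentate list were also well expressed in CB. *Prox1*, the factor that specifies dentate granule cells, still had 33.8, 38.8 and 37.8 CPM in CB against 112, 108 and 78.3 CPM in HC, *Akap7* was higher in CB by 1.77, and *Dock10* had 61.6 and 61.5 CPM but was called lower with the GC correction described below (-0.48, adjusted p = 0.000894). *Map3k15*, on the CA2 and CA3 list, was lower by 6.22 at P14 but only by 0.58 at P35, a pattern it shared with the predicted genes described below.

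Forebrain interneurons had the lowest median of the 36 lists, with 15 of 19 genes lower in CB and a median of -5.54. *Dlx1*, a homeobox factor of the ventral forebrain, had 25.0, 36.5 and 29.8 CPM in HC and at most 0.201 CPM in CB. *Dlx2* had no read in any CB library and was at least 170.4-fold lower there. *Sst*, the neuropeptide somatostatin, was at 146, 199 and 165 CPM in HC against 5.37, 3.48 and 1.61 CPM in CB. Genes that every GABAergic neuron needs did not follow that direction uniformly, since *Gad1* was higher in CB by 0.51 and *Gad2* lower by 0.40. *Cnr1* (1.40), the cannabinoid receptor, and *Maf* (1.24) were higher in CB as well. Among the 8 genes of the list with at least 10 counts in every library, 4 were lower and 4 higher, since that requirement removes genes nearly without reads in CB.

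Factors that pattern the embryonic brain still separated the regions at P14. Of 16 mid-hindbrain factors 9 had enough reads to be tested and all 9 were higher in CB (median 4.99). Of 14 tested forebrain factors 10 were lower and 1, *Zbtb20*, was higher (median -4.23). With at least 10 counts in every library, 3 mid-hindbrain factors remained, all higher (median 4.32). Of 8 forebrain factors that remained, 5 were lower and 1 higher (median -0.58). Genes nearly without reads in 1 region drop out there, since they pass the main filter only through the other region. *En2*, a homeobox gene of the midbrain and anterior hindbrain, was at 162, 183 and 153 CPM in CB and 0.383, 0.632 and 0.364 CPM in HC. *Fezf2*, a forebrain zinc finger factor, showed the reverse and had no read in CB and 26.1, 38.2 and 37.7 CPM in HC, at least 1050.1-fold lower. The *Irx* genes *Irx1*, *Irx2*, *Irx3* and *Irx5* and the *Zic* genes *Zic4* and *Zic5* all lay on the CB side, between 2.77 and 5.43. *En2* and *Fezf2* were named by the size of their differences in these 6 libraries, so they are no separate check of the tissue labels.

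**Figure D2:**
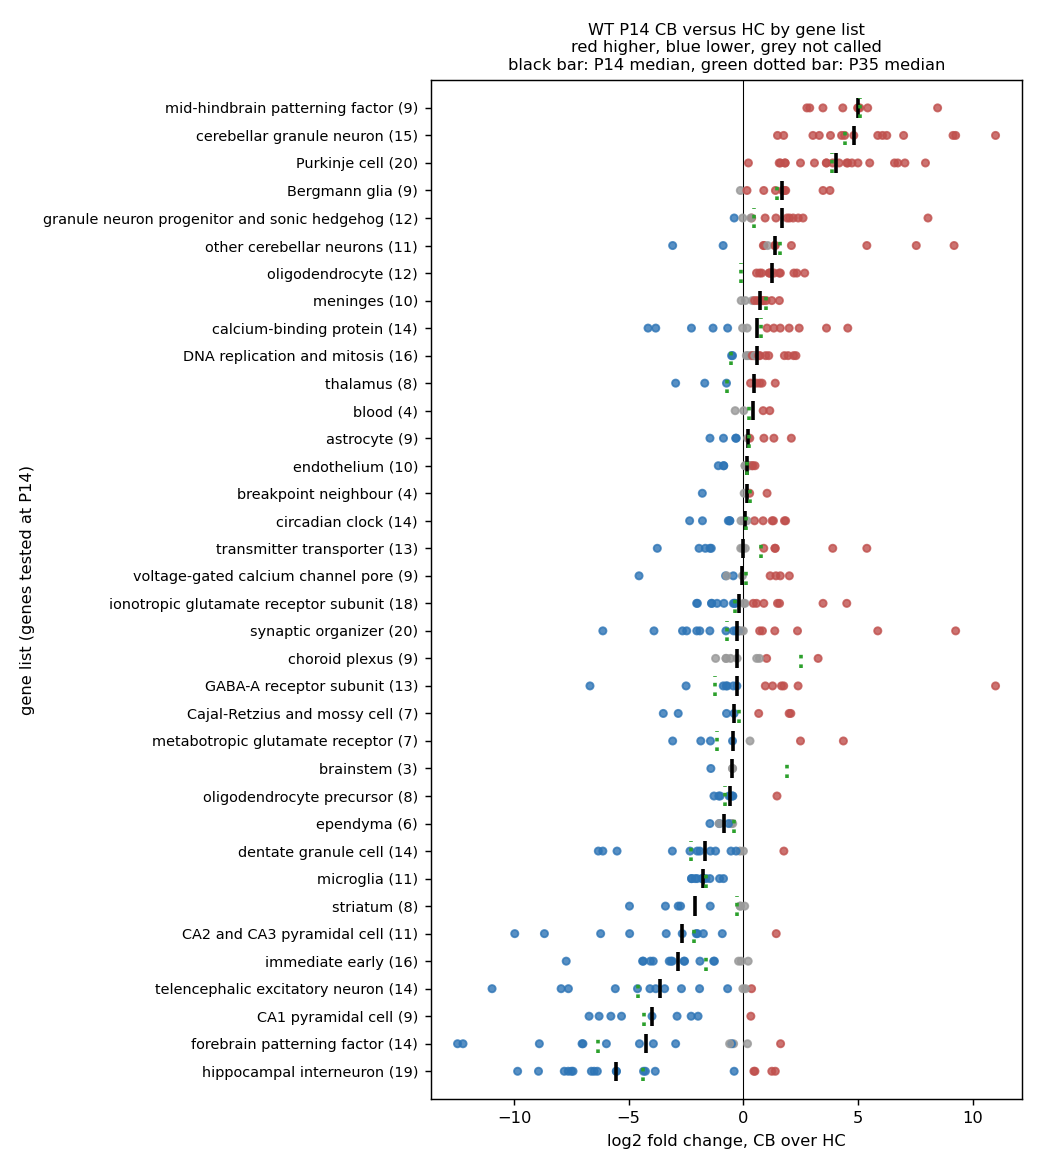
Log2 fold change, CB over HC, of the tested genes of 36 lists in WT at P14, 1 point per gene (red, called higher. Blue, called lower. Grey, not called). Black bars are P14 medians and green dotted bars P35 medians. Lists of mid-hindbrain factors, granule neurons and Purkinje cells lie on the right with medians of 4.99, 4.82 and 4.04, and lists of interneurons and forebrain factors on the left with -5.54 and -4.23. With at least 10 counts in every library, the interneuron and forebrain medians were 0.0065 and -0.58, over fewer genes.

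Genes of dividing cells were mostly higher in CB. Of 16 genes of DNA replication and mitosis 10 were higher in CB and 2 lower (median 0.58, with 6 and 0 against a 1.5-fold change), and of 12 genes of granule neuron progenitors and sonic hedgehog signalling 9 were higher and 1 lower (median 1.67). *Mki67*, for the proliferation antigen Ki-67, had 44.2, 48.8 and 56.5 CPM in CB and 11, 10.2 and 9.19 CPM in HC. *Top2a*, a topoisomerase of mitotic cells, had 30.8, 29.6 and 39.8 CPM against 9.78, 9.39 and 6.64 CPM. Neither gene overlapped between the regions, at log2 fold changes of 2.30 ± 0.12 (adjusted p = 4.65e-08) and 1.95 ± 0.16 (adjusted p = 1.5e-06). *Atoh1*, the factor of granule neuron progenitors, was at 1.41, 1.51 and 1.91 CPM in CB and had no read in HC, at least 17.0-fold higher. The targets of sonic hedgehog *Gli1* (2.61), *Hhip* (2.17) and *Ptch1* (2.02) and its co-receptor *Boc* (2.40) were higher too, while *Smo* (-0.02, adjusted p = 0.813), the transducer that many cell types make, had 26.0 and 26.4 CPM. *Mycn* was lower in CB by 0.40. With the GC correction described below *Smo* was called higher, at 0.45 (adjusted p = 0.00115), *Mycn* was not called, at -0.10 (adjusted p = 0.288), and the progenitor list had 11 genes higher and none lower.

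At P35, in other mice, 10 genes of the replication and mitosis list were tested, of which 2 were higher in CB, 4 lower and 4 not called. *Mki67* averaged 1.41 CPM in P35 CB and 7.58 CPM in P35 HC (log2 fold change -2.38), and *Top2a* 1.10 and 5.78 CPM (-2.38). The region-by-age difference, P14 minus P35, was 4.66 ± 0.31 for *Mki67* (edgeR adjusted p = 7.61e-09) and 4.33 ± 0.46 for *Top2a* (adjusted p = 2.14e-06). *Ccnb1* (4.99, adjusted p = 8.43e-05) differed between ages in the same sense. *Gli1* and *Ptch1* did not pass that test, with differences of 0.15 (adjusted p = 0.705) and -0.08 (adjusted p = 0.645) and P35 log2 fold changes of 2.43 and 2.08, near those of P14. Over all genes, 7589 of 15573 (48.7%) were called for region by age, and each age and region had its own set of libraries, so that age and library batch cannot be told apart in this contrast.

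Receptor and channel families held genes of both directions, as did all tested genes (38.8% higher and 38.4% lower), and they are described here by single subunits. Of 19 GABA-A receptor genes 13 were tested, of which 6 were higher in CB and 7 lower, or 4 and 8 with the correction for GC content that is described below. On chromosome 11, *Gabra6* and *Gabrb2* lay on the CB side at 11.003 and 1.67. On chromosome 7, *Gabra5* and *Gabrg3* lay on the HC side at -6.69 and -2.50. *Gabra5*, a subunit of extrasynaptic receptors of pyramidal cells, had 3.24, 2.18 and 0.869 CPM in CB and 262, 234 and 192 CPM in HC. On chromosome 5, *Gabra2* (-0.70), *Gabra4* (-0.88) and *Gabrb1* (-0.44) were lower, and *Gabrg1* was higher by 0.96 without and lower by 0.50 with that correction.

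Glutamate receptors gave 7 ionotropic genes higher and 9 lower of 18, and 2 metabotropic genes higher and 4 lower of 7. *Grik2*, a kainate receptor subunit, was higher in CB by 1.58. The NMDA receptor genes changed from subunit to subunit. *Grin2c* was higher by 1.49, the obligatory subunit gene *Grin1* was lower by 1.38, *Grin2d* by 1.14 (not called with the GC correction, at -0.22, adjusted p = 0.163) and *Grin2b* by 0.43, and *Grin2a* had 31.5 and 31.2 CPM (0.01, adjusted p = 0.927). At P35 the fold changes of *Grin2a*, *Grin2b* and *Grin2c* were -2.17, -3.86 and 2.87. *Grm4*, a presynaptic receptor of granule neurons, had 251, 295 and 253 CPM in CB against 11.8, 13.1 and 13.8 CPM in HC. *Grm5*, a group I receptor, was lower in CB by 1.44. *Gria2*, the subunit that sets the calcium permeability of AMPA receptors, was not called (0.07, adjusted p = 0.358) but was lower by 1.13 with the GC correction.

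Calcium channels and transporters were also spread over both directions. The T-type channel genes went opposite ways, *Cacna1g* being higher in CB by 2.01 while *Cacna1h* was at 5.66, 5.37 and 6.78 CPM in CB and 141, 153 and 119 CPM in HC. *Cacna1a*, the P/Q-type channel gene, was higher by 1.61. *Slc17a7*, the vesicular glutamate transporter VGLUT1, had 409, 489 and 427 CPM in CB and 1671, 1647 and 1739.7 CPM in HC, and *Slc17a6* (VGLUT2) was higher in CB by 1.39. Astroglial glutamate uptake divided likewise, with *Slc1a3* (GLAST) higher in CB by 0.89 and *Slc1a2* (GLT-1) lower by 1.46. *Slc1a6*, the transporter of Purkinje cells, was higher by 3.90. The vesicular GABA transporter gene *Slc32a1* had 84.4 and 85.9 CPM and was not called, but was called higher with the GC correction (0.65, adjusted p = 0.000413).

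**Figure D3:**
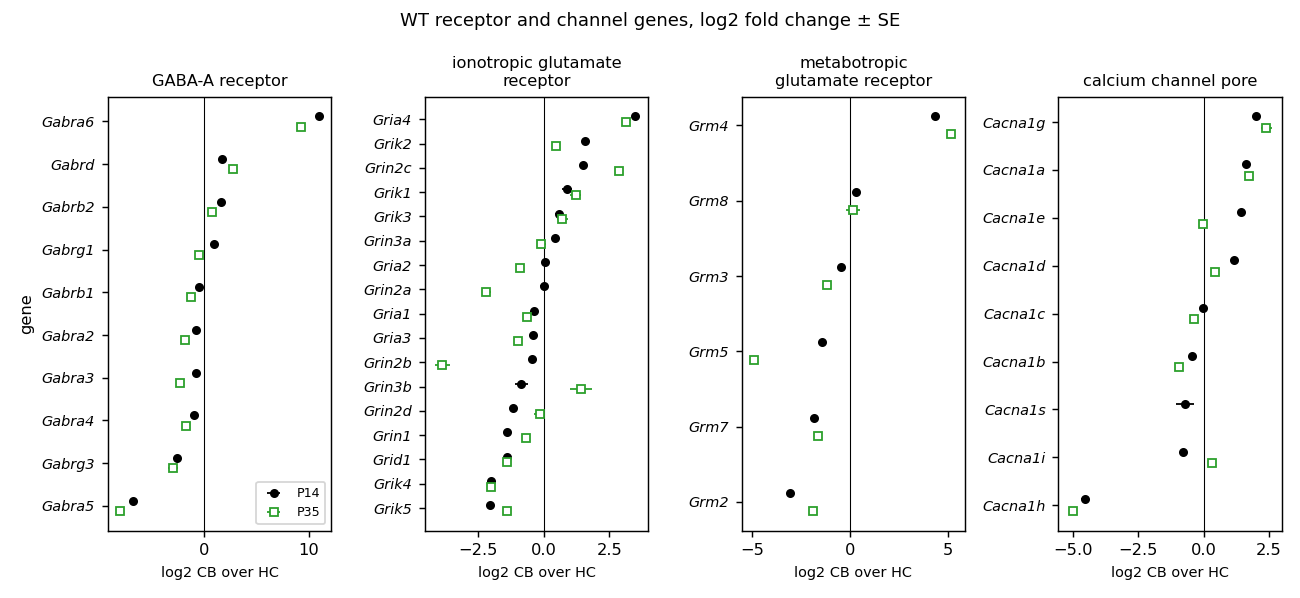
Log2 fold change, CB over HC, with its SE for tested genes of 4 receptor and channel families in WT mice (black circles, P14. Green open squares, P35, where tested). *Gabra6* and *Gabra5* mark the ends of the GABA-A family at 11.003 and -6.69, and *Cacna1g* and *Cacna1h* those of the calcium channels at 2.01 and -4.55.

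Secreted and adhesive organizers of synapses gave 6 genes higher and 11 lower of 20. The cerebellin family was split, with *Cbln1* and *Cbln3* higher by 5.87 and 9.26 and *Cbln2* and *Cbln4* lower by 2.47 and 2.65. Its relatives of the C1q-like family, *C1ql1*, *C1ql2* and *C1ql3*, were lower by 1.46, 6.13 and 1.90. Among the leucine-rich transmembrane proteins, *Lrrtm3* was higher by 2.36 and *Lrrtm1* lower by 3.90. Calcium-binding proteins gave 7 higher and 5 lower of 14. Over all tested genes 38.8% were higher and 38.4% lower, and neither family is read here beyond its single genes. *Pvalb*, the calcium buffer parvalbumin, rose by 4.56 and *Calb2*, calretinin, by 2, whereas hippocalcin (*Hpca*, 1205 ± 185 CPM in HC and 85.3 ± 5.55 CPM in CB) and its relative *Hpcal4* (-4.16) lay on the HC side. *Hpcal1*, of the same family, was higher in CB by 2.44.

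Glial lists differed in direction. All 12 genes of mature oligodendrocytes were higher in CB, with a median of 1.27. *Mbp*, myelin basic protein, had 5086, 5113 and 4340.2 CPM in CB and 2764, 1559.9 and 2323 CPM in HC. Of 8 genes of their precursors 7 were lower in CB, among them *Pdgfra* (-1.02) and *Cspg4* (-1.28), and *Enpp6*, which marks newly formed oligodendrocytes, was higher by 1.47. With the GC correction described below, 4 precursor genes were lower and 2 higher. The myelin difference was not seen at P35, where the same 12 genes had a median of -0.08 with 2 called higher and 5 lower, and all 12 were called for region by age (*Mbp* 1.10, adjusted p = 0.000769). In 16GsoT/T mice at P14 the median was 0.37. Within WT HC the summed level of the list varied from 3245 CPM in N5 to 5525 CPM in N4, below every CB library (10411 CPM or more).

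Microglial genes were lower in CB in 11 of 11 cases, with a median of -1.77 at P14 and -1.63 at P35. *Csf1r*, the receptor on which microglia depend, had 31.4, 27 and 29.9 CPM in CB and 111, 90.5 and 98.9 CPM in HC. Astrocyte genes gave 4 higher and 4 lower of 9, with *Aqp4*, the water channel, higher in CB by 2.09 and *Glul*, glutamine synthetase, lower by 0.87, and without HC replicate N4 there were 3 higher and 2 lower. Endothelial genes gave 4 higher and 3 lower of 10, between -1.09 and 0.51, and meningeal genes 7 higher of 10 and none lower, with a median of 0.73. Over all tested genes 38.8% were higher and 38.4% lower, and the astrocyte and endothelial counts lay near these shares. Against a 1.5-fold change, none of the endothelial genes remained higher and 3 meningeal genes did.

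Activity-regulated genes were lower in CB. Of 16 immediate early genes 13 were called lower and none higher, with a median of -2.84. *Egr3*, a zinc finger factor induced by activity, had 0.23, 0.145 and 0.0434 CPM in CB and 36.2, 27.5 and 36.1 CPM in HC, and *Arc*, for a protein of active synapses, had 5.11, 4.64 and 4.47 CPM against 96.5, 55.5 and 149 CPM. *Fos* overlapped between the regions, with 5.77, 4.44 and 9.82 CPM in CB and 9.30, 7.31 and 31.5 CPM in HC (-1.29, adjusted p = 0.0329). The summed level of the list was highest in HC replicate N6 at 799 CPM. Of 14 clock genes 6 were higher in CB and 5 lower, near the 38.8% and 38.4% of all tested genes, and with the GC correction 9 were higher and 4 lower. *Nr1d1*, the nuclear receptor REV-ERB alpha, was at 57.3 ± 6.22 CPM in CB and 290.3 ± 7.71 CPM in HC, and *Cry1* at 44.0 ± 2.26 and 12.2 ± 1.09 CPM. At P35 the *Nr1d1* fold change was -0.19 (adjusted p = 0.0809) and that of *Cry1* 1.65.

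The genes next to the 16Gso breakpoints were measured here in WT tissue only. *Galnt17*, listed as *Wbscr17*, had 39.9, 39.8 and 43.3 CPM in CB and 144, 146 and 134 CPM in HC, a log2 fold change of -1.79 ± 0.07 (adjusted p = 5.45e-09), and -1.70 at P35. The difference between ages did not pass the test (-0.11, adjusted p = 0.464). Its neighbor *Auts2* had overlapping levels of 81.3, 92.3 and 86.2 CPM and 86.2, 92.6 and 74.5 CPM (0.04, adjusted p = 0.718). With the GC correction *Auts2* was called higher by 0.30 (adjusted p = 0.00962). *Caln1*, a calcium-binding protein gene on the other side of *Galnt17*, was higher in CB by 1.04 and *Sox1*, on the second chromosome of the translocation, by 0.28 (adjusted p = 0.0266). The *Sox1* call was lost in 8 of the alternative fits.

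Markers of neighboring tissue varied between libraries. Choroid plexus genes summed to 689, 232 and 26.5 CPM in CB and to 436, 927 and 111 CPM in HC, mostly *Ttr* in every library but CB replicate 3 (622, 193 and 2.04 CPM against 408, 876 and 97.3 CPM), which was not called. *Otx2*, on the same list, was higher in CB by 3.26, and cerebellar granule neurons also make it. Striatal genes summed to 760 CPM in HC replicate N4 and to 162 and 173 CPM in N5 and N6, with 247 to 282 CPM in CB. Of 8 striatal genes 5 were lower and none higher in CB, and without replicate N4 there were 5 lower and 3 higher. Ependymal genes gave 3 lower of 6, blood genes 2 higher of 4 and thalamic genes 5 higher and 3 lower of 8. Over all tested genes 77.2% were called in either direction. Against a 1.5-fold change, 1 ependymal gene remained lower, 1 blood gene higher, and 2 thalamic genes higher and 2 lower. Brainstem genes gave 1 lower of the 3 that could be tested of 16. Whether carried-over tissue had a part in these values was not tested.

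A separate class of genes set the lower end of the comparison. Among the 10 lowest well-expressed genes 8 had LOC symbols, the names given to predicted genes, and the others were *Ddn* and *Gm1974*. *LOC100503216* had 0.632, 0.348 and 0.174 CPM in CB and 894, 683 and 708 CPM in HC. *LOC100502995* had 0.144, 0.232 and 0.13 CPM in CB against 181, 142 and 164 CPM in HC, but 182 and 201 CPM on average in P35 CB and HC. Of 711 tested LOC genes 400 were lower in CB and 191 higher, and 315 (44.3%) were lower by at least 4-fold. Where they were tested at both ages, 509 LOC genes had a median of -2.73 at P14 and -0.04 at P35.

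More broadly, 550 genes were called lower by at least 16-fold at P14 and also tested at P35, and 308 of them (56.0%) were within 2-fold between the regions at P35. In the other direction this held for 1 of 110 genes. The 308 genes were 185 LOC genes and 123 others, and together they made up 32434 CPM in P14 HC, 202 CPM in P14 CB, 38198 CPM in P35 HC and 29044 CPM in P35 CB. The low sum in P14 CB beside P14 HC, and the similar sums of both regions at P35, were set by how these genes were chosen. Of the 123 with other symbols, 103 had a position in the GENCODE vM1 annotation, and a median of 16.7% of their exonic bases lay under exons of the other strand, against 0% for 189 genes that were 16-fold lower at P14 and differed at P35. Whether overlap of strands had a part in these values was not tested, and whether the counts used strand is not given in the sources used here. *Map3k15* and *Gm1974* belonged to this class, but *Ddn*, *Nrgn* and *Camk2a* did not, at -12.32, -8.46 and -5.43 at P35.

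**Figure D4:**
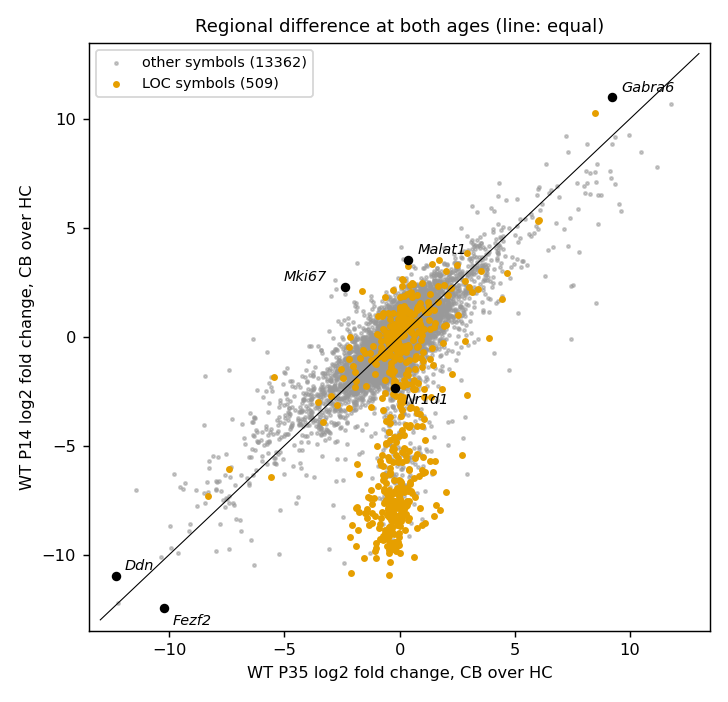
Log2 fold change, CB over HC, at P14 (vertical) and at P35 (horizontal) of genes tested in WT mice at both ages, 13362 with other symbols in grey and 509 with LOC symbols in orange. The line marks equal values. Genes with other symbols are spread around it (Spearman's rho 0.67). A column of mainly LOC genes hangs below 0 on the P14 axis near 0 on the P35 axis, with medians of -2.73 and -0.04 over all LOC genes.

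The comparison at P35, in separate mice, called 7772 of 13886 genes (56.0%). Of the genes without LOC symbols that were at least 4-fold higher in P14 CB and tested at P35, 92.7% were called in the same direction there, and of those at least 4-fold lower 75.7%. Among 4-fold lower LOC genes it was 33.9%. The same contrast in 16GsoT/T mice at P14 called 12138 of 16246 genes (74.7%). Of the 4-fold higher and lower genes, 99.0% and 99.8% were called alike there, but those CB libraries shared the high share of reads on genes. Across 13362 genes without LOC symbols, Spearman's rho of the P14 and P35 log2 fold changes was 0.67, a description over genes that are not independent.

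The P14 difference was also related to base composition. Across 13807 protein-coding genes the P14 log2 fold change fell with the GC content of the transcript (Spearman's rho -0.47), and across 12430 genes at P35 rho was -0.05. In the 1243 genes with the lowest GC content (33.1% to 42.2%) the median P14 log2 fold change was 0.97, 82.0% were called higher and 8.45% lower. In the 1243 with the highest (58.5% to 72.9%) the median was -0.65, with 14.1% higher and 68.5% lower. P35 medians of these groups were 0.19 and 0.01. After an offset for GC content was added for each library, 71.3% of the 13807 genes were called. Of the 10632 calls made on them without it, 7749 (72.9%) were called in the same direction and 577 in the other. In that fit the granule neuron (14 of 14 genes with a GC value), Purkinje cell (20 of 20), oligodendrocyte (12 of 12) and microglia (11 of 11) lists had the counts and directions given above, at medians of 4.46, 3.69, 1.18 and -1.55. Many other lists had other counts in it. Among them were Bergmann glia (7 higher, 1 lower), telencephalic excitatory neurons (3 and 10), dentate granule cells (3 and 11), endothelium (2 and 4), meninges (5 and 0) and thalamus (2 and 2). Counts also moved for hippocampal interneurons, CA1 pyramidal cells and astrocytes. The same held for ionotropic glutamate receptors, calcium channel pores, transporters and synaptic organizers.

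Single genes named above moved by over 1.5-fold with the GC correction and are given here with their corrected log2 fold changes, all of them still called. On the CB side the difference became smaller for *Gabra6* (9.98), *Car8* (6.30), *Neurod1* (3.66), *Pax6* (3.55), *Calb1* (2.30), *Top2a* (1.31), *Aqp4* (1.18), *Akap7* (0.98), *Grik2* (0.98), *Slc17a6* (0.74) and *Gabrb2* (0.65). It became larger for *Grm4* (5.02), *Irx1* (4.28), *Irx3* (3.55) and *Grin2c* (2.18). On the HC side it became smaller for *Egr3* (-7.02), *C1ql2* (-5.33) and *C1ql1* (-0.45), and larger for *Neurod6* (-4.86), *Gabrg3* (-3.19), *Grm5* (-2.22), *Gabra4* (-1.63) and *Gabra2* (-1.51). *Cbln1*, *Sox1*, *Zbtb20* and the LOC genes had no value in that fit.

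**Figure D5:**
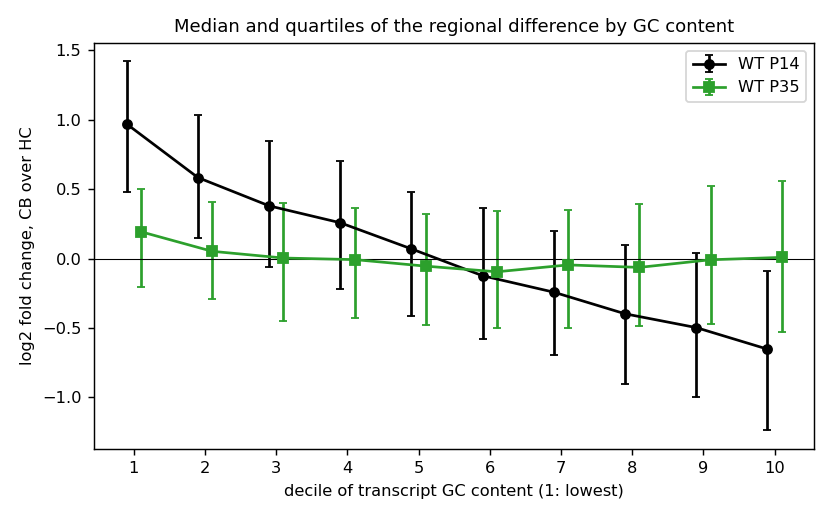
Median (points) and quartiles (bars) of the log2 fold change, CB over HC, in 10 equal groups of protein-coding genes ordered by transcript GC content, for genes tested at both ages (black circles, P14. Green squares, P35). The P14 median falls from 0.97 to -0.65 from the lowest to the highest group, and the P35 median goes from 0.19 to 0.01.

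A pair of RNAs that are not messenger RNAs were looked at after their values were seen. The nuclear long noncoding RNA *Malat1* had 3874, 3351 and 3762 CPM in CB and 284, 272 and 389 CPM in HC at P14, but 469 and 360.2 CPM on average at P35. *Rn18s*, the 18S ribosomal RNA, had 5679.6, 7687 and 3927 CPM in CB and 531, 605 and 513 CPM in HC at P14, and 787 and 2835 CPM on average at P35. Both differed between ages by the interaction test, at 3.14 (adjusted p = 5.59e-09) and 5.22 (adjusted p = 0.000277). Whether the library batch had a part in these values was not tested.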

How the data were processed

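RNA from 3 CB and 3 HC of WT male mice at P14 was compared. Per the labels, libraries were made with a TruSeq Stranded mRNA kit, whereas the methods name a KAPA Stranded mRNA-Seq kit. The submitters' processing notes name CASAVA 1.8.2, TopHat2 2.0.8, HTSeq 0.6.1 and the build NCBIM37, and the authors deposited raw counts per gene symbol, with 25793 symbols and 5 summary lines that were left out of library sizes. The annotation and strand option are not given in the sources used here.

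In R 4.3.3, counts were scaled by TMM, filtered with filterByExpr (minimum count 10, minimum total 15) and fitted with the quasi-likelihood test of edgeR 4.0.16. Adjustment of p-values followed Benjamini and Hochberg, across the whole set of tested genes in each fit. A call needs an adjusted p of at most 0.05. The common biological coefficient of variation was 0.0917. Region by age used the 12 WT libraries. Depth was 10572358 to 35061288 reads on genes, and bounds (3 counts over a group at 0) and 95% Poisson intervals cover counting error only. Scripts were tested on simulated data. GC content, exon length and strand overlap came from GENCODE vM1, in which no LOC symbol had a position.

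The comparison and the 36 gene lists (417 genes) were chosen with earlier results of these data known. Named were the 10 highest and 10 lowest called genes with a mean log2 CPM of at least 6 and no overlap, up to 6 called genes of each list with the largest changes, the tested receptor, channel, transporter, organizer and calcium-binding genes, the 4 highest and 4 lowest region-by-age genes with a mean log2 CPM of at least 5, and the breakpoint neighbors. Other genes that the text names, such as *Smo*, *Malat1* or *Fos*, were chosen after their values were seen, as was the limit of 16-fold at P14 and 2-fold at P35. Some genes that this rule names are not reported here. Alternatives are given at the end. The GC correction (a loess curve per library) and the fit without LOC symbols were added after the data were seen.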

Additional observations from a re-analysis of the deposited data

Results flagged for a closer look

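The regional difference of some genes changed between P14 and P35 by the region-by-age test of edgeR, and these are given as log2 differences, P14 minus P35. Among genes of dividing cells they were 4.66 for *Mki67*, 4.33 for *Top2a*, 4.99 for *Ccnb1*, 2.27 for *Bub1* and 1.64 for *Cdk1*. The last 2 were not called with the GC correction (1.52 and 1.29, adjusted p = 0.117 and 0.135). For the myelin gene *Mbp* it was 1.10. *Malat1* (3.14) and *Rn18s* (5.22) are not protein-coding, and the GC correction did not cover them. The highest values among well-expressed genes belonged to *Igfbpl1* (6.45), *Gm5506* (5.92) and *Lhx2* (5.70), next to *Rn18s*. *Igfbpl1* had 58.0 and 61.7 CPM in P14 CB and HC and 0.113 and 10.2 CPM at P35. *Lhx2*, a telencephalic factor, was lower in CB at both ages (-7.03 and -11.43, from a separate fit at each age). Its age difference was the least certain of these, with an SE of 1.84 (region-by-age adjusted p = 0.0197), against 0.75 for *Igfbpl1* and 0.37 for *Gm5506*. The lowest were 4 LOC genes, *LOC100502995* (-9.67), *LOC100504588* (-9.56), *LOC100502907* (-9.53) and *LOC100503897* (-9.48). All of these contrasts set 4 groups of libraries against each other, and age and library batch cannot be told apart. Groups of 3 libraries were not tested for single outlying libraries.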

How the results depend on the processing

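No paired analysis was possible because the CB and HC libraries share no replicate number. Against a 1.5-fold change (glmTreat), 7042 genes were called, 3504 higher and 3538 lower in CB. With at least 10 counts in every library, 387 genes were 4-fold higher and 755 were 4-fold lower, and with the GC correction 469 and 876, both over fewer genes. The GC correction left 3873 region-by-age calls. Under the other alternatives (DESeq2, its size factors, upper quartile scaling, no filter, CB thinned to HC depth, one fit of the 12 P14 libraries, LOC symbols left out, a 1.5-fold minimum added to the call), where run, the counts stayed within 1.5 times. Leaving out single libraries gave 11526 to 12074 calls, 5746 to 6098 higher, 5780 to 5976 lower, 652 to 822 4-fold higher, 1463 to 1597 4-fold lower, 6871 to 7842 for region by age and 11370 to 12032 in 16GsoT/T mice.

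Direction changed with the GC correction for *Gabrg1* (-0.50), *Gria2* (-1.13), *Grm8* (-0.14), *Cacna1c* (0.12), *Slc32a1* (0.65), *Nrxn2* (0.63), *Nlgn2* (0.41), *Flrt1* (0.23), *Vsnl1* (-0.45), *Cabp1* (0.61), *Gfap* (0.0214), *Slco1a4* (-0.55) and *Igfbpl1* (0.27). Near 0 it changed for *Grin2a* (DESeq2 -0.00757, its size factors in edgeR -0.00636, upper quartile -0.0697, at least 10 counts -0.00894, no LOC symbols -0.00478), *Gria2* (upper quartile -0.0120), *Auts2* (upper quartile -0.0476, thinned -0.0213), *Cacna1c* (no filter 0.0180), *Slc32a1* (no filter 0.0270), *Necab1* (no filter 0.0239) and *Flrt1* (no filter 0.0557, thinned 0.0331, 12 libraries 0.0179). Leaving out 1 library gave -0.0364 to 0.12 for *Auts2*, -0.11 to 0.0547 for *Cacna1c*, -0.10 to 0.0793 for *Flrt1*, -0.14 to 0.13 for *Grin2a*, -0.28 to 0.0885 for *Igfbpl1*, -0.13 to 0.12 for *Necab1*, -0.15 to 0.11 for *Slc32a1* and -0.19 to 0.21 for *Slc6a13*. The cause was not tested. No fit could separate region from library batch.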
